A study of Mus musculus with 27 samples.

Results

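The genes described here move long-chain fatty acids into the fat cell and ready them for use: the membrane receptor Cd36, the fatty acid transport proteins Slc27a1 and Slc27a4, the cytoplasmic binding proteins Fabp3, Fabp4 and Fabp5, and the acyl-CoA synthetases Acsl1, Acsl3, Acsl4 and Acsl5. They were named as 10 genes of this step, with earlier results of these data known. A gene was measured through a probe set, a group of array probes summarised to a single value, that carried its symbol alone. Where a gene had several such sets, the brightest on average across all 27 arrays was used. By this rule 8 of the 10 genes were measured, among 18781 genes in all. No probe set listed Acsl1, and the set listing Acsl3 also listed Utp14b, so these genes had no set of their own.

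RNA was hybridised to 27 arrays of the type Affymetrix Mouse Gene 1.1 ST and came from mature adipocytes made in culture from 3T3-L1, an established mouse preadipocyte line. The 9 groups held 3 arrays each: cells labelled as not treated at time 0, and cells given 1 µM rosiglitazone, an insulin-sensitising drug that activates the nuclear receptor PPARγ, for 30 min, 1 h, 2 h, 6 h, 12 h, 24 h, 36 h or 48 h. The cells of all groups had been differentiated with dexamethasone, insulin and 3-isobutyl-1-methylxanthine, followed by insulin and then plain growth medium, and the drug was dissolved in DMSO, which the untreated cells are not labelled as having received. No array used here is labelled as DMSO alone, so time in culture, handling and the solvent cannot be told apart from the drug. Cultured cells of a single line lack the blood vessels and other cell types of fat tissue.

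Long-chain fatty acids reach the fat cell from lipoproteins and albumin in blood and cross the membrane with the help of Cd36 and the transport proteins. Inside, binding proteins carry them through the cytosol, and a synthetase joins each fatty acid to coenzyme A, which traps it in the cell and commits it to storage, membrane lipids or oxidation. Several genes of this route, Cd36 and Fabp4 among them, are known PPARγ targets.

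Values are log2 intensities, and a change is a difference of group means on that scale with its SE and n = 3 arrays per group. A gene rose or fell where limma's adjusted p, corrected by Benjamini-Hochberg over all 18781 genes, was below 0.05. Probes differ in brightness, so members are not ranked by level, and a gene's place among all genes only describes how bright its probe set was. The labels do not say that replicates were separate cultures, so each p-value is set against differences among arrays that may be purely technical. The median SE of a change over all genes was 0.088.

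The 27 array medians lay between 4.02 and 4.13, no pair of arrays was identical, and arrays of a group correlated at 0.995 or more. The adipocyte markers Adipoq, Plin1, Cidec and Lpl had untreated means of 11.91, 11.56, 11.86 and 12.23. Macrophages and endothelium also use Cd36, Fabp4 or Fabp5. Of the 7 macrophage markers, Adgre1 and Ptprc had untreated means of 2.68 and 3.21, and the brightest, Cd68 and Cd14, had means of 5.02 and 4.63. The endothelial markers Cdh5 and Kdr had means of 3.12 and 2.78, and the brightest of the 6, Vwf, had a mean of 3.74. Of the 7 measured preadipocyte and fibroblast markers, the brightest in untreated cells were Dlk1 and Col1a1, with means of 10.22 and 9.75. The dimmest was Cd34, at 3.04. Summed over the 7, the linear intensity was 3586 to 3676 in untreated arrays. It was 2613 to 2928 at 24 h and 2633 to 2754 at 48 h. Of the 7, 6 fell at 24 h and 5 at 48 h, where 10.5% and 11.4% of all genes fell. Among the 9 adipocyte markers, 3 rose at 24 h (Cidec, Lipe and Pnpla2), where 10.1% of all genes rose. Retn and Pparg, which encodes the receptor of the drug, fell at both 24 h and 48 h. Pparg changed by -0.25 and -0.30 (limma adjusted p = 0.000379 and 5.55e-05). The sum of the 9 was 27861 to 28785 in untreated arrays, 28819 to 29233 at 24 h and 25805 to 27772 at 48 h. The 7 macrophage markers summed to 98.3 to 102 in untreated arrays, 77.8 to 87.0 at 24 h and 91.6 to 100.7 at 48 h. Cd14 fell by 0.83 at 24 h and by 0.66 at 48 h. The 6 endothelial markers summed to 54.8 to 57.5 in untreated arrays, 58.2 to 60.3 at 24 h and 55.9 to 58.2 at 48 h. Pecam1, itself dim at 3.37, rose by 0.27 at 24 h (adjusted p = 0.0297) and was not called at 48 h (0.18, adjusted p = 0.164). The 5 muscle markers summed to 54.9 to 58.0 in untreated arrays, 56.0 to 58.1 at 24 h and 53.4 to 62.3 at 48 h. The part of these shifts in the changes below was not tested, and fewer cells of a type and less RNA per cell cannot be told apart in such samples.

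The promoters of a pair of genes that rose, Cd36 and Slc27a4, and of the gene that fell most, Acsl5, are shown because PPARγ binds direct repeats of a short hexamer. RefSeq windows, 250 bases before to 50 after the annotated start on GRCm38.p6, were given for 8 of the 10 named genes and not for Fabp4 or Fabp5. The hexamer AGGTCA and the repeat AGGTCANAGGTCA, the latter with up to 2 mismatches outside the N, were searched on both strands, and matches are in capitals.
Cd36, chr5:17835847-17836146, minus strand: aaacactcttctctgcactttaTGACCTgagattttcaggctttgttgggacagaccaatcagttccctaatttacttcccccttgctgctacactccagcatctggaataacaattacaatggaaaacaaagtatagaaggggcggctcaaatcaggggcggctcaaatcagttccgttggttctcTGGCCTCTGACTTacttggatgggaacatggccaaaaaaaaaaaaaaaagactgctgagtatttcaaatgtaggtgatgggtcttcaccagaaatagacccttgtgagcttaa
Slc27a4, chr2:29802384-29802683, plus strand: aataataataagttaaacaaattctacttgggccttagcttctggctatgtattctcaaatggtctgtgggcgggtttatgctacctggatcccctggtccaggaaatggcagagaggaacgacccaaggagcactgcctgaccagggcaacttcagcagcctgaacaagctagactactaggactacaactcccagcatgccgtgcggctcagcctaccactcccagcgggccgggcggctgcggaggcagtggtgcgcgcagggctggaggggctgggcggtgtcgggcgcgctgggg
Acsl5, chr19:55253119-55253418, plus strand: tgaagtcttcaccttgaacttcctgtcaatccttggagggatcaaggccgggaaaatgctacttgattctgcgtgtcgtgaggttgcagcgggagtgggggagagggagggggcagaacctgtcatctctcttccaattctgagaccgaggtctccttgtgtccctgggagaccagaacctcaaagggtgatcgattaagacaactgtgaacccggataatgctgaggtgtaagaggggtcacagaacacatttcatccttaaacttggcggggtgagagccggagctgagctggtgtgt

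The Cd36 window held 1 hexamer, at -228 to -223, and 1 repeat with 2 mismatches, at -63 to -51, counted from the start, and both lay on the opposite strand to the gene. Of all 32851 windows, 16.3% held the hexamer and 3.86% held the repeat under the same rule. The windows of Slc27a4 and Acsl5, and those of Fabp3, Slc27a1, Acsl1, Acsl3 and Acsl4, held neither. A match is a run of letters and not a known site, and these windows leave out distant elements.

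The question was which genes of this route changed in the drug-treated cells, and when. Over the course, 6 of the 8 measured genes changed by limma's F-test: Cd36, Fabp4, Fabp5, Slc27a4, Acsl4 and Acsl5 (adjusted p between 1.35e-12 and 0.0109). Across all genes the share was 40.5%. Fabp3 and Slc27a1 were not called (adjusted p = 0.289 and 0.162). The receptor Cd36, the binding protein Fabp5 and the transporter Slc27a4 were called higher at every time from 6 h to 48 h. The binding protein Fabp4 was called higher at 6 h, 24 h and 36 h. Its uncalled change at 1 h (0.24, limma adjusted p = 0.0664) was as large as that at 6 h. The synthetase Acsl5 was lower from 12 h on, and the synthetase Acsl4 was lower at 6 h.

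**Figure D1:**
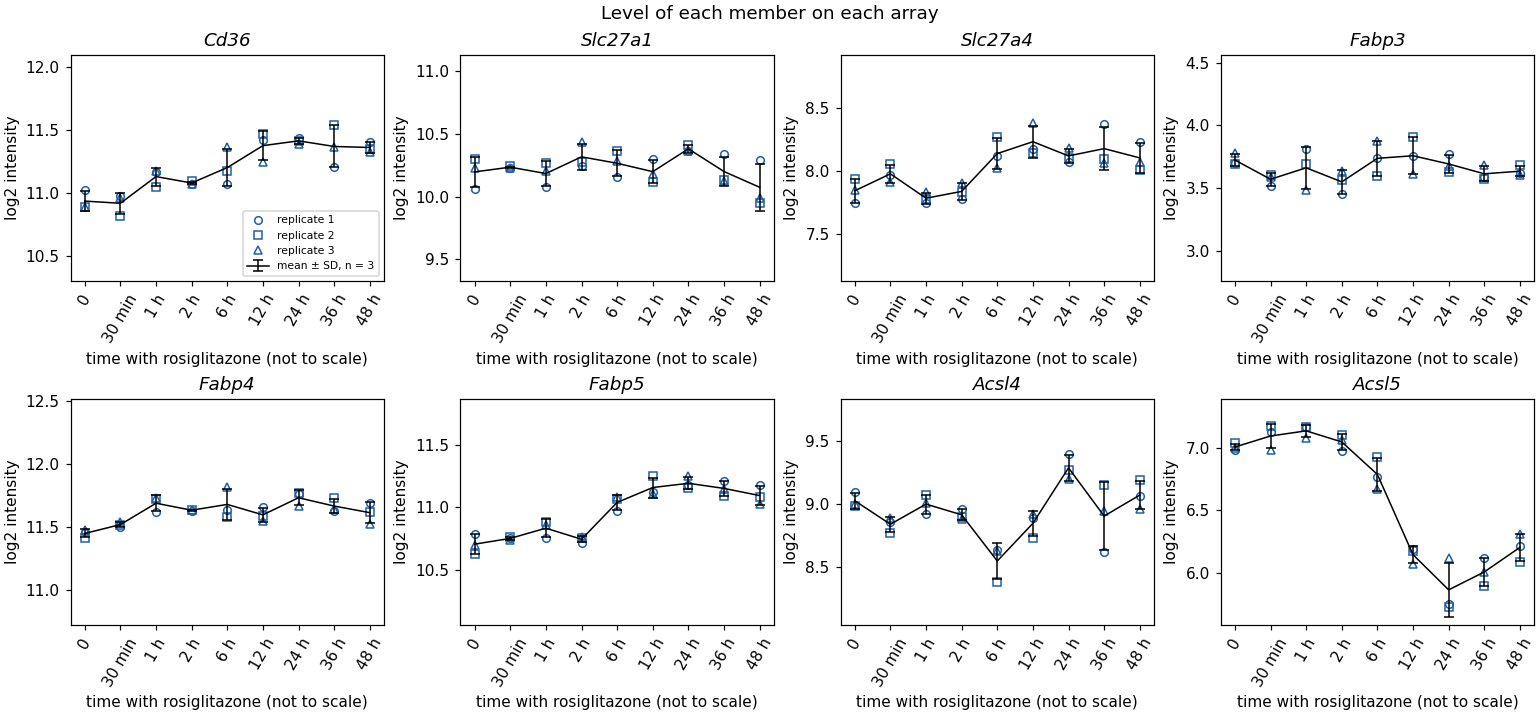
Log2 intensity (vertical axis, the same span in each panel) of the 8 measured genes against time with rosiglitazone (horizontal axis, not to scale), with a symbol per replicate and the mean ± SD of 3 arrays as the line. Acsl5 dropped from 7.00 in untreated cells to 5.87 at 24 h, and Acsl4 was lowest at 6 h and highest at 24 h.

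No member was called at 30 min, 1 h or 2 h by limma, although 0, 3 and 2 of the 8 had an unadjusted p below 0.05. The share of all genes called was 0.0479%, 0.99% and 5.91% at these times. At 6 h, 4 members rose and 1 fell, where 8.39% of all genes rose and 8.18% fell, 16.6% in all. At 12 h, 3 rose and 1 fell (9.48% and 9.38% of all genes, 18.9% in all). At 24 h, 4 rose and 1 fell (10.1% and 10.5%, 20.7% in all), and so it was at 36 h (10.9% and 10.5%, 21.4% in all). At 48 h, 3 rose and 1 fell (12.6% and 11.4%, 24% in all). The median change of the 8 members was 0.27 at 24 h and 0.11 at 48 h, and over all genes it was -0.0045 and 0.013. The count of 5 at 6 h was 3 without the 6 h replicate 3, when Cd36 (0.19, adjusted p = 0.17) and Fabp4 (0.16, adjusted p = 0.103) were no longer called.

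Whether the 3 arrays of a time all lay to one side of the 3 untreated arrays was also counted. This held for 3 of the 8 members at 30 min, where it held for 15.5% of all genes, for 3 at 1 h (16.6%), for 4 at 2 h (24.7%) and for 6 at 6 h (32.4%). It held for 6 members at 12 h (32% of genes) and 7 members at 24 h (35.2%). At 36 h and 48 h it held for 6 members each, beside 31.2% and 36% of all genes.

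Cd36, the membrane receptor that binds long-chain fatty acids, rose from 6 h on. Its log2 intensities were 11.03, 10.89 and 10.89 in untreated cells, 11.07, 11.17 and 11.36 at 6 h, 11.42, 11.46 and 11.24 at 12 h, 11.44, 11.41 and 11.39 at 24 h, 11.20, 11.54 and 11.37 at 36 h, and 11.41, 11.35 and 11.33 at 48 h. Every array from 1 h on lay above the 3 untreated arrays, while the 30 min arrays, at 10.97, 10.82 and 10.96, overlapped them. The change was 0.27 ± 0.081 at 6 h (adjusted p = 0.0227), then 0.44 ± 0.081 at 12 h (adjusted p = 0.000252). It reached 0.48 ± 0.081, or 1.39-fold, by 24 h (adjusted p = 7.22e-05).

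Cd36 stayed higher by 0.43 ± 0.081 at both 36 h and 48 h (adjusted p = 0.000223 and 0.000256). In the order of its group means, 24 h stood first at 11.41, and 12 h (11.38), 36 h (11.37) and 48 h (11.36) followed, each overlapping its neighbour. The only gap between neighbours without overlap lay between 2 h (11.08) and untreated (10.93). The 6 h call rested on single arrays: it ended without untreated replicate 2 (0.24, adjusted p = 0.086), without untreated replicate 3 (0.24, adjusted p = 0.0838) and without the 6 h replicate 3.

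Slc27a1 encodes FATP1, the transport protein of muscle and fat cells, and Slc27a4 encodes FATP4, a widely expressed relative with acyl-CoA synthetase activity. Slc27a4 measured 7.75, 7.93 and 7.85 in untreated cells, 8.12, 8.27 and 8.02 at 6 h, 8.17, 8.15 and 8.38 at 12 h, 8.07, 8.10 and 8.18 at 24 h, 8.38, 8.10 and 8.06 at 36 h, and 8.23, 8.01 and 8.07 at 48 h. All arrays from 6 h on lay above the untreated ones. At 30 min, 1 h and 2 h the arrays overlapped with them.

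Slc27a4 rose at 6 h (0.30 ± 0.085, adjusted p = 0.0163), 12 h (0.39 ± 0.085, adjusted p = 0.00153), 24 h (0.28 ± 0.085, adjusted p = 0.0196), 36 h (0.34 ± 0.085, adjusted p = 0.00486) and 48 h (0.26 ± 0.085, adjusted p = 0.0254). Its group means fell into no order among these 5 times, since every neighbouring pair overlapped. Most of these calls hung on 1 array. Without untreated replicate 1 those at 6 h, 24 h and 48 h ended (adjusted p = 0.0886, 0.1005 and 0.118). The 6 h call also ended without the 6 h replicate 2 (adjusted p = 0.109), the 24 h call without the 24 h replicate 3 (0.0767), and the 36 h call without the 36 h replicate 1 (0.0507). The 48 h call ended without the 48 h replicate 1 (adjusted p = 0.143) or untreated replicate 3 (0.0587), and in these 3 fits the change lay between 0.198 and 0.264.

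Slc27a1 was not called against untreated cells at any time with all arrays in the fit. It measured 10.06, 10.30 and 10.23 in untreated cells, 10.36, 10.41 and 10.37 at 24 h, and 10.29, 9.95 and 9.99 at 48 h. The arrays at 24 h were higher than all untreated ones (0.18 ± 0.087, adjusted p = 0.153), and those at 48 h overlapped them (-0.12, 95% interval from -0.30 to 0.057, adjusted p = 0.353). That value moved with the replicates kept: without replicate 1 of every group it was -0.30 and was called (adjusted p = 0.00976), and without the 48 h replicate 1 alone it was -0.23 (adjusted p = 0.0605). Without replicate 2 of every group it was -0.00695 (adjusted p = 0.978). Its 48 h mean was below its 2 h mean by -0.24 ± 0.087 (adjusted p = 0.0441), although the arrays at the 2 times overlapped. That call was lost with centred arrays, a further quantile normalization, the replicate block or only these arrays in the fit (adjusted p between 0.0662 and 0.129), and without the 2 h replicate 2 or 3 or the 48 h replicate 2 or 3 (adjusted p between 0.065 and 0.209). The log2 difference Slc27a1 minus Slc27a4 within an array was 2.35 ± 0.033 (SD, n = 3) in untreated cells and 1.97 ± 0.075 at 48 h, without overlap, and the exact two-sided permutation test gave p = 0.1, the smallest that 3 arrays against 3 allow (adjusted p = 0.1 over 3 pairs of relatives).

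Fabp4, also called aP2, is the most abundant fatty acid carrier of adipocytes, and Fabp5 is its relative in skin, macrophages and fat. Fabp4 measured 11.46, 11.41 and 11.47 in untreated cells, 11.50, 11.51 and 11.54 at 30 min, 11.61, 11.72 and 11.73 at 1 h, 11.63, 11.64 and 11.63 at 2 h, and 11.63, 11.58 and 11.82 at 6 h. It measured 11.65, 11.58 and 11.55 at 12 h, 11.76, 11.77 and 11.66 at 24 h, 11.62, 11.73 and 11.64 at 36 h, and 11.69, 11.62 and 11.53 at 48 h. Every treated array, from 30 min on, was above the 3 untreated arrays.

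Fabp4 rose at 6 h (0.23 ± 0.062, adjusted p = 0.0106), at 24 h (0.28 ± 0.062, adjusted p = 0.00139) and again at 36 h (0.22 ± 0.062, adjusted p = 0.0125). Its earlier change of 0.24 ± 0.062 at 1 h, as large as that at 6 h, had an adjusted p of 0.0664, and that of 0.18 ± 0.062 at 2 h one of 0.0877. The 24 h mean of 11.73 was the highest, 1.22-fold over untreated, and the neighbours from 24 h down to 12 h (11.59) overlapped. The 36 h call ended without untreated replicate 2 (0.20, adjusted p = 0.0543) and without the 36 h replicate 2 (0.19, adjusted p = 0.0594). At 48 h the change of 0.17 missed the threshold (adjusted p = 0.0557), but it was called in 6 alternatives, with adjusted p between 0.00528 and 0.0437, among them leaving out the 48 h replicate 3 (0.21, adjusted p = 0.03). The 12 h change of 0.15 (adjusted p = 0.109) was called in 4 alternatives, with adjusted p between 0.0258 and 0.0499.

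Fabp5 rose at every time from 6 h to 48 h. It measured 10.79, 10.63 and 10.70 in untreated cells, 10.72, 10.75 and 10.77 at 2 h, 10.97, 11.06 and 11.08 at 6 h, 11.12, 11.25 and 11.10 at 12 h, 11.17, 11.15 and 11.25 at 24 h, 11.21, 11.09 and 11.15 at 36 h, and 11.18, 11.08 and 11.03 at 48 h. The 5 later groups stood apart from the 4 earlier ones, with a gap of 0.20 between the means at 6 h and 1 h and no overlap across it.

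The change of Fabp5 was 0.33 ± 0.061 at 6 h (adjusted p = 0.000303), 0.45 ± 0.061 at 12 h (adjusted p = 5.73e-06), 0.48 ± 0.061 at 24 h (adjusted p = 1.36e-06), 0.44 ± 0.061 at 36 h (adjusted p = 4.29e-06) and still 0.39 ± 0.061 at 48 h (adjusted p = 2.56e-05). It had already moved between 2 h and 6 h (0.29 ± 0.061, adjusted p = 0.00223), a comparison that does not use the untreated arrays. That call was lost without replicate 2 or replicate 3 of every group (0.28 each time, adjusted p = 0.0728 and 0.0861). Within an array, Fabp4 minus Fabp5 went from 0.74 ± 0.061 (SD, n = 3) in untreated cells to 0.52 ± 0.023 at 48 h without overlap (exact two-sided permutation p = 0.1, adjusted p = 0.1).

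Fabp5 had 3 probe sets with its symbol alone. The second bright set, with a mean of 10.93 over all arrays against 10.96 for the set used, changed by 0.53 ± 0.061 at 24 h (adjusted p = 7.14e-07). The dim set, with a mean of 4.08, changed by 0.64 ± 0.098 (adjusted p = 3.91e-05). Over the 9 group means these sets followed the set used with Pearson r of 0.99 and 0.97. Between 6 h and 24 h both rose, by 0.21 ± 0.061 (adjusted p = 0.0354) and 0.38 ± 0.098 (adjusted p = 0.0144). The set used was not called there (0.15 ± 0.061, adjusted p = 0.115). Probes may also read near-identical copies of a gene, which these data cannot separate.

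**Figure D2:**
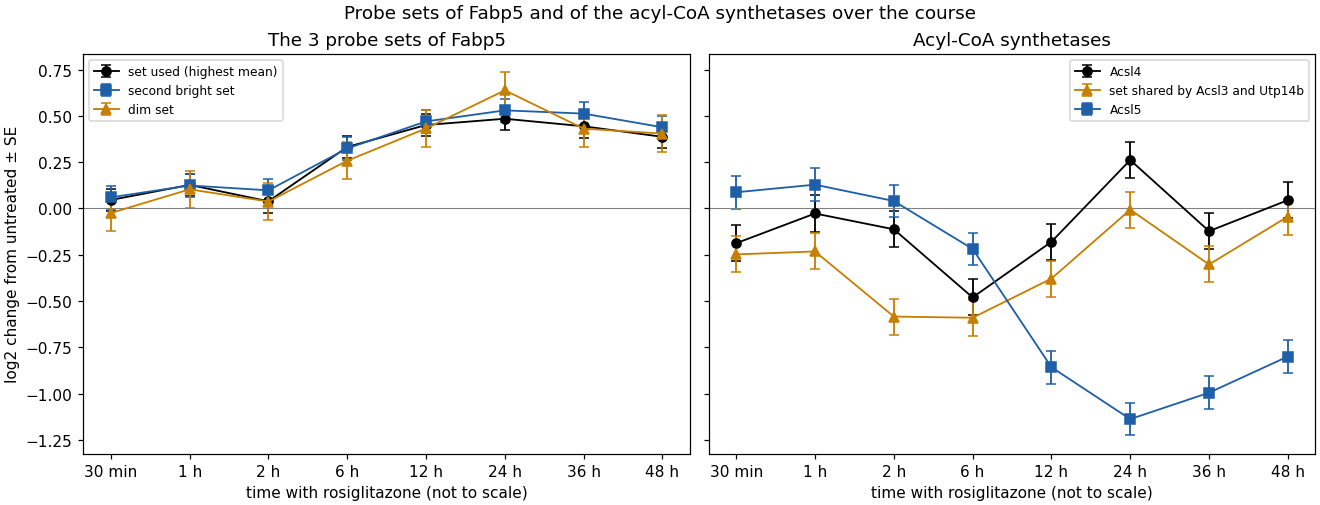
Log2 change from untreated ± SE (vertical axis, 3 arrays per group) against time (horizontal axis, not to scale), for the 3 probe sets of Fabp5 on the left and for Acsl4, Acsl5 and the set shared by Acsl3 and Utp14b on the right. The Fabp5 sets move together to between 0.48 and 0.64 at 24 h, and Acsl4 and the shared set are low at 6 h, at -0.48 and -0.59, and near or above 0 at 24 h.

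In the GRCm38.p6 gene order Fabp5, Pmp2, Fabp9, Fabp4 and Fabp12 are neighbours on chromosome 3. Between Fabp5 and Fabp4, the myelin lipid carrier Pmp2 and the testis carrier Fabp9 were dim, with untreated means of 2.58 and 2.71. At 24 h Pmp2 changed by 0.092 (adjusted p = 0.559) and Fabp9 by 0.065 (adjusted p = 0.736). Fabp12, beyond Fabp4, changed by -0.15 (adjusted p = 0.398). At other times Fabp9 was called higher at 1 h (0.45, limma adjusted p = 0.0208) and Pmp2 at 36 h (0.25, adjusted p = 0.0464). Over the course the F-test called Fabp9 (adjusted p = 0.00256) and not Pmp2 (0.316) or Fabp12 (0.692).

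Fabp3, the heart and muscle carrier that brown fat also makes, was dim here. It measured 3.70, 3.69 and 3.78 in untreated cells and 3.62, 3.68 and 3.61 at 48 h, and 40.3% of genes had a lower mean. Its change was -0.089 at 48 h (95% interval from -0.26 to 0.083, adjusted p = 0.505), and all 8 comparisons with untreated cells had an adjusted p of 0.286 or more. Its other probe set followed a different course (Pearson r of 0.45 over the 9 group means) and was 0.18 higher at 48 h (adjusted p = 0.263). That set was also higher at 48 h than at 2 h, by 0.33 ± 0.107 without overlap (adjusted p = 0.0323 over all probe sets). The set used was not called there (0.085 ± 0.083, adjusted p = 0.529).

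Acsl5, a synthetase of mitochondria and endoplasmic reticulum, had the widest range of group means among the 8 genes, 1.27, wider than that of 99.1% of all genes. It measured 6.98, 7.04 and 6.99 in untreated cells, 6.97, 7.10 and 7.06 at 2 h, 6.77, 6.92 and 6.67 at 6 h, 6.19, 6.18 and 6.07 at 12 h, 5.75, 5.73 and 6.12 at 24 h, 6.12, 5.90 and 6.01 at 36 h, and 6.22, 6.09 and 6.31 at 48 h. At 6 h all 3 arrays were already below the untreated ones (-0.22 ± 0.088, adjusted p = 0.0973, and -0.29 with adjusted p = 0.0482 without the 6 h replicate 2). From 12 h on every array lay below every array of the first 5 groups.

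Acsl5 fell by 0.86 at 12 h (SE 0.088, adjusted p = 1.3e-07), by 1.14 at 24 h (SE 0.088, adjusted p = 6.95e-10), by 0.99 at 36 h (SE 0.088, adjusted p = 5.78e-09) and by 0.80 at 48 h (SE 0.088, adjusted p = 1.64e-07). At 24 h its linear level was 0.455 of the untreated one. Most of the fall came between 6 h and 24 h (-0.92 ± 0.088, adjusted p = 1.05e-07). The 48 h mean was above the 24 h mean by 0.34 ± 0.088, but the arrays overlapped, through the 24 h replicate 3, and the adjusted p was 0.0525. Acsl5 was lowest at 24 h, when Cd36, Fabp4 and Fabp5 were highest.

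Acsl4, a synthetase that favours arachidonic acid, went down and then up. It measured 9.10, 8.98 and 8.999 in untreated cells, 8.96, 8.90 and 8.88 at 2 h, 8.63, 8.38 and 8.63 at 6 h, 8.89, 8.73 and 8.92 at 12 h, 9.40, 9.27 and 9.20 at 24 h, 8.62, 9.15 and 8.95 at 36 h, and 9.06, 9.19 and 8.96 at 48 h. The 6 h arrays lay below those of every other group but for the 36 h replicate 1, which fell within their range, and the 24 h arrays lay above those of every other group.

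At 6 h, Acsl4 fell by 0.48 (SE 0.098, adjusted p = 0.000918). The level at 24 h was 0.74 ± 0.098 above that at 6 h (adjusted p = 1.06e-05), or 1.67-fold. Against untreated cells the 24 h change was 0.26 ± 0.098 (adjusted p = 0.0596), while the 36 h value was -0.12 (adjusted p = 0.441) and the 48 h value 0.045 (adjusted p = 0.801). The spread at 36 h was the widest of its groups, with an SD of 0.27. In comparisons chosen after these values had been seen, Acsl4 was higher at 24 h than at 12 h by 0.44 ± 0.098 (adjusted p = 0.012), where 2.93% of all genes were called, and the step from 24 h to 36 h was -0.38 ± 0.098 (adjusted p = 0.144), where 0.154% were.

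The probe set shared by Acsl3, a synthetase of lipid droplets and endoplasmic reticulum, and Utp14b, a ribosome assembly factor, cannot be given to either gene. In a fit over all probe sets it changed by -0.58 ± 0.097 at 2 h (adjusted p = 0.000407), -0.59 ± 0.097 at 6 h (adjusted p = 0.000153), -0.38 ± 0.097 at 12 h (adjusted p = 0.00871), -0.0066 at 24 h (adjusted p = 0.98), -0.30 ± 0.097 at 36 h (adjusted p = 0.0329) and, finally, -0.044 at 48 h (adjusted p = 0.814). At 36 h its arrays overlapped the untreated ones, and their SD of 0.28 was the widest of its groups. Like Acsl4, the shared set was higher at 24 h than at 6 h (0.58 ± 0.097, adjusted p = 0.000275).

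**Figure D3:**
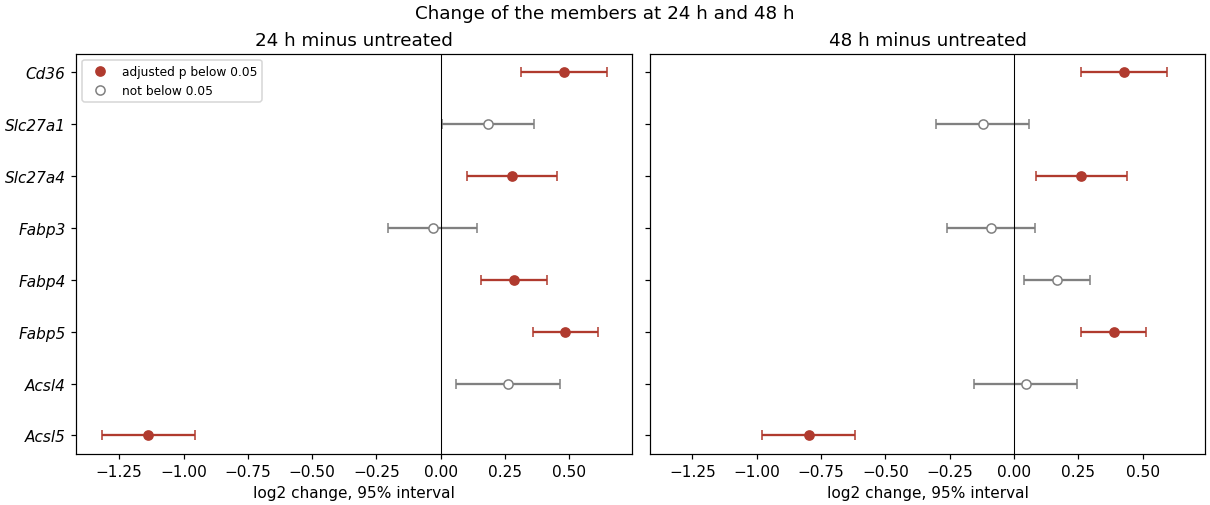
Log2 change (horizontal axis) with its 95% interval for the 8 genes at 24 h (left) and 48 h (right) against untreated cells, n = 3 arrays per group; filled points have an adjusted p below 0.05. Acsl5 lies far to the left at both times, at -1.14 and -0.80, while the genes that rose stay between 0.26 and 0.48.

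Later times were also compared with each other. Between 2 h and 6 h, Fabp5 and Slc27a4 (0.30 ± 0.085, adjusted p = 0.0242) rose and Acsl4 fell by 0.37 (SE 0.098, adjusted p = 0.0158), so 3 of 8 changed where 9.16% of all genes did, but the count was 1 without the 2 h replicate 1. The Slc27a4 call was lost without the 2 h replicate 1 or 2 or the 6 h replicate 1 or 2 (adjusted p between 0.0559 and 0.14), and the Acsl4 call without the 2 h replicate 1 or the 6 h replicate 2 (adjusted p = 0.0702 and 0.111). Between 6 h and 24 h, Acsl4 rose and Acsl5 fell, 2 of 8 against 11.5%, and Fabp5 rose only by its other probe sets. Between 24 h and 48 h limma called 0 of the 8, with 3 at an unadjusted p below 0.05, where 1.46% of all genes were called. That count was 1 without the 24 h replicate 3, the 48 h replicate 1 or the 48 h replicate 2. Between 2 h and 48 h, Cd36, Fabp5 and Slc27a4 rose and Slc27a1 and Acsl5 fell, 5 of 8 against 23.7%. This count was 3 without the 2 h replicate 2 and 4 without any other single array of these times, and each time the calls lost were those of Slc27a1, Slc27a4 or both.

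The courses most like those of the 3 members with the widest range were sought among the genes that the F-test called, by Pearson r over the 9 group means, which share their arrays. For Acsl5 they were Tpgs2, a subunit of a tubulin-modifying enzyme (r = 0.99), Gstt1, a glutathione transferase (r = 0.99), and Slc16a4, a member of the monocarboxylate transporter family (r = 0.99). Gstt1 fell by 1.37 at 24 h (adjusted p = 2.42e-09) and Slc16a4 by 0.87 (adjusted p = 1.17e-07). For Cd36 they were Cab39, a partner of the kinase LKB1 (r = 0.99), the phospholipase Pnpla8 (r = 0.99) and Elmod2, a regulator of small GTPases (r = 0.98). Acsl4 had less close neighbours, the deubiquitinase Mindy2 (r = 0.94), the transcription factor Sp1 (r = 0.93) and the cohesin subunit Stag2 (r = 0.93).

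Among the members themselves, Cd36 and Fabp5 had r = 0.96 over the 9 group means, Fabp5 and Slc27a4 0.89, and Cd36 and Fabp4 0.68. Acsl5 ran opposite to Cd36 (r = -0.91) and Fabp5 (r = -0.93). Slc27a1 had its highest r among the members with Fabp4, 0.36.

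Other genes of the route were taken from 4 lists written from general knowledge but with earlier results of these data known. Their counts are therefore not independent of the data. Of 14 measured synthetases and transport proteins besides the members, 2 rose and 1 fell at 24 h and 3 rose and 2 fell at 48 h, where 20.7% and 24% of all genes were called. The list medians were 0.033 and 0.043, and those of all genes -0.0045 and 0.013. Acsf2, a mitochondrial acyl-CoA synthetase, rose by 0.49 ± 0.058 at 24 h (adjusted p = 7.22e-07), from 9.86 ± 0.034 (SD, n = 3) to 10.34 ± 0.04. Acsf3, which activates malonate, rose by 0.53 ± 0.074 at 48 h (adjusted p = 5.36e-06), after 0.33 ± 0.074 at 24 h (adjusted p = 0.00165). Aacs, which activates acetoacetate for lipid synthesis, fell by 0.85 at 6 h (SE 0.093, adjusted p = 5.1e-07), and 48 h still had a change of -0.64 ± 0.093 (adjusted p = 9.56e-06). Acss2, the cytosolic acetate synthetase, fell by 0.44 at 6 h (SE 0.072, adjusted p = 9.61e-05) and was at 0.014 at 24 h (adjusted p = 0.937), having risen by 0.45 ± 0.072 between these times (adjusted p = 0.000114).

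Of 18 acyl-CoA binding proteins and thioesterases, which hold or split the product of the synthetases, 4 rose while 14 were not called at 24 h, with a median of 0.075, and 7 rose while 11 were not called at 48 h, with a median of 0.093, beside the 20.7% and 24% of all genes called. The mitochondrial thioesterase Acot13 rose by 0.51 ± 0.084 at 48 h (adjusted p = 5.02e-05) and the binding protein Acbd6 by 0.32 ± 0.062 (adjusted p = 0.000292). Acbd4, a binding protein found on peroxisomes in human cells, was highest at 12 h (0.69 ± 0.106, adjusted p = 3.11e-05), and the thioesterase Them4 rose by 0.42 ± 0.102 at 24 h (adjusted p = 0.00347). Dbi, the abundant acyl-CoA binding protein, had a range of group means of only 0.15 (F-test adjusted p = 0.525).

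Of 16 membrane partners of uptake, 5 rose and 2 fell at 6 h, 3 rose and 2 fell at 24 h, and 2 rose and 4 fell at 48 h, where 16.6%, 20.7% and 24% of all genes were called. The list medians were 0.062, 0.029 and -0.11. Ffar4, the receptor for long-chain fatty acids also called GPR120, first fell by 0.42 at 2 h (SE 0.09, adjusted p = 0.00418) and then lay above untreated cells, by 0.45 ± 0.09 at 6 h (adjusted p = 0.000826) and most at 24 h, by 0.92 ± 0.09 (adjusted p = 3.08e-08). Its level was 7.86 ± 0.095 (SD, n = 3) in untreated cells, 7.44 ± 0.073 at 2 h and 8.78 ± 0.074 at 24 h. Cavin2 and Cav1, coat and core proteins of caveolae, the membrane pits in which Cd36 gathers, moved apart: Cavin2 rose by 0.92 ± 0.085 at 12 h (adjusted p = 2.99e-08), while Cav1 fell by 0.40 at 48 h (SE 0.06, adjusted p = 1.28e-05). Nrp1, a receptor for Vegfb, rose by 0.31 ± 0.072 at 2 h (adjusted p = 0.00835) and measured -0.16 at 48 h (adjusted p = 0.123).

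**Figure D4:**
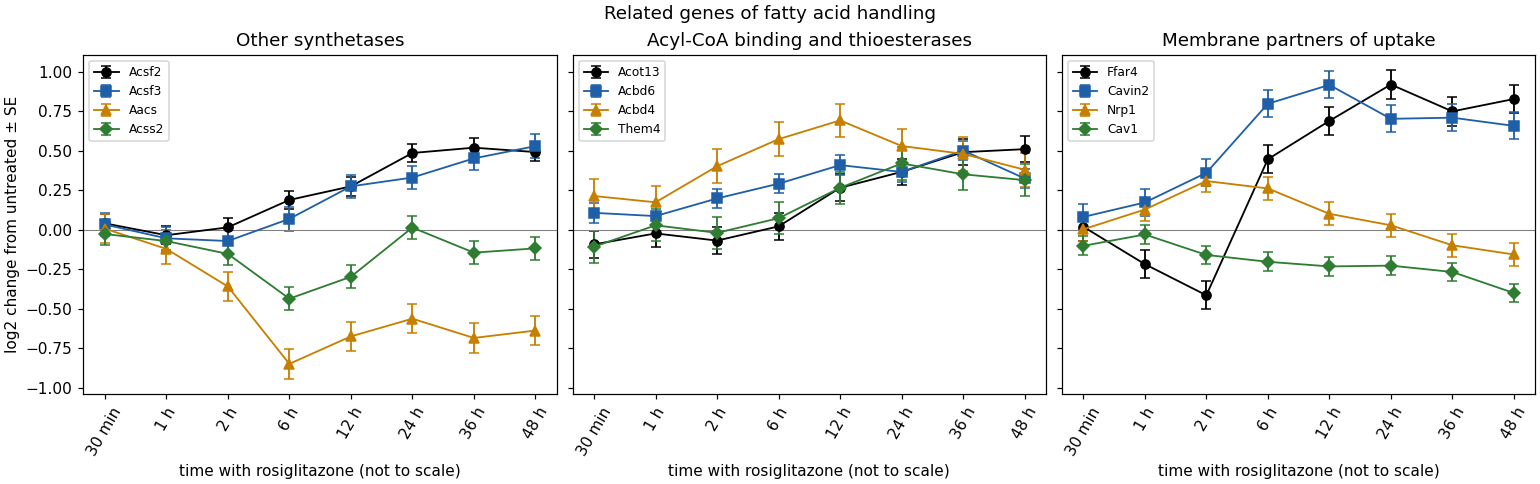
Log2 change from untreated ± SE (vertical axis, 3 arrays per group) against time (horizontal axis, not to scale) for the genes named from 3 lists: other synthetases, acyl-CoA binding proteins and thioesterases, and membrane partners of uptake. Ffar4 is at -0.42 at 2 h and 0.92 at 24 h, and Aacs stays at -0.56 or lower from 6 h on.

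Of the 7 other fatty acid binding proteins, all measured, limma called 0 at 24 h and at 48 h, where 20.7% and 24% of all genes were called. At an unadjusted p below 0.05 there were 0 and 1. All 7 were dim, with untreated means between 2.49 and 3.19. Over all comparisons there were 3 calls: Fabp9 was higher at 1 h (0.45 ± 0.098, adjusted p = 0.0208) and lower at 6 h than at 2 h (-0.36 ± 0.098, adjusted p = 0.0213), and Pmp2 was higher at 36 h (0.25 ± 0.089, adjusted p = 0.0464). Of all genes, 0.99%, 9.16% and 21.4% were called in these comparisons. The F-test called 1 of the 7, Fabp9 (adjusted p = 0.00256), where it called 40.5% of all genes. Fabp1, Fabp2 and Fabp6, carriers of liver and gut, were not called by the F-test (adjusted p = 0.108, 0.207 and 0.218).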

How the data were processed

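The values used are the deposited log2 intensities. Partek and RMA are named, per the submitters' processing notes, with versions and roles not given in the sources used here. Of 28815 probe sets, 21153 carried 1 symbol in the platform annotation, 1867 several and 5795 none; the brightest set on average was kept for each of 18781 genes, with no filter on dim genes. Groups follow the labels. Group means were fitted in limma 3.58.1 under R 4.3.3 (lmFit, eBayes, no covariates), two-sided, with Benjamini-Hochberg adjustment over all genes and a threshold of 0.05; steps were tested on simulated data. Paralog differences used exact permutation tests, and the 3 planned pairs with Acsl1 were not analysed here. Promoters came from RefSeq (GRCm38.p6). Python 3.11.15 and matplotlib 3.10.9 drew the figures. The members and lists were chosen with earlier results of these data known. Named were all members, the 4 genes of each list with the smallest F-test p, and the 3 nearest genes of the 3 members with the widest range; Dbi, Pmp2, Fabp12 and the cell type markers were named outside this rule. Alternatives varied the normalization, dim-gene filter, probe-set rule, variance model, array weights, minimum change, arrays fitted and replicates kept. Arrays give no molecule counts, and their number limits the precision. Replicates of equal number did not deviate together (median correlation -0.13 over 108 pairs of arrays, with 3 above 0.1). Arrays of different number had a median of 0.051 over 216 pairs, with 70 above 0.1 and the highest at 0.36. Some arrays of different groups thus deviated alike, for reasons that were not tested. The model has no replicate block.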

Additional observations from a re-analysis of the deposited data

Results flagged for a closer look

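Several members changed by different amounts at different times, as tested by setting a later time against an earlier one. Cd36 was higher at 48 h than at 2 h by 0.28, a call lost without any 1 of the 3 replicate numbers. Fabp5 was higher at 6 h than at 2 h by 0.29 and at 48 h than at 2 h by 0.35. The former call was lost without replicate 2 or replicate 3 of every group. Slc27a4 was higher at 6 h than at 2 h by 0.30 and at 48 h than at 2 h by 0.27, and both calls were lost without single arrays. Slc27a1 was lower at 48 h than at 2 h, by -0.24 (adjusted p = 0.0441), with overlapping arrays, and this call was lost under 4 alternative settings and on leaving out each of 4 single arrays. Acsl4 was lower at 6 h than at 2 h, by -0.37, and higher at 24 h than at 6 h by 0.74. The former call was lost without the 2 h replicate 1 or the 6 h replicate 2. It was also lost without replicate 2 or replicate 3 of every group. Acsl5 was lower at 24 h than at 6 h, by -0.92, and at 48 h than at 2 h, by -0.84. Each is a log2 difference of means of 3 arrays with a limma adjusted p below 0.05.

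Probe sets outside the main measurement also differed from untreated cells. The set shared by Acsl3 and Utp14b differed most at 6 h, by -0.59. The second bright set of Fabp5 differed most at 24 h, by 0.53, and the dim set at 24 h, by 0.64.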

How the results depend on the processing

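No change of a member at any time reversed where it was called. The replicate block (the replicate number as a term) changed none of the 64 calls against untreated cells, with 5 members called at 24 h as before, but gave 4 in place of 5 between 2 h and 48 h, where Slc27a1 was lost (adjusted p = 0.0662). The numbers were not shown to pair the arrays, and 0 of 27 arrays correlated best with an array of their own number. Averaging all probe sets for a gene changed none of the 64 calls against untreated cells. Between 6 h and 24 h, however, Fabp5 was then called (0.25, adjusted p = 0.0185). Under a minimum change of 1.5-fold, Acsl5 alone was called, at 24 h and 36 h: the counts were 1 at each of these times, 0 at 6 h, 12 h and 48 h, and 0 between 2 h and 6 h, 6 h and 24 h, and 2 h and 48 h. With only the arrays of the groups compared, 3 members were called at 6 h and 3 at 36 h. Fabp4 was called at 1 h, giving a count of 1, for genes above the median mean alone, with a trended and robust variance and with array weights; at 2 h it was called under these and a further quantile normalization, again a count of 1. Fabp4 was also called at 48 h in 6 alternatives and at 12 h in 4. For genes above the median mean alone and with the trended variance the counts were 4 between 6 h and 24 h and 2 between 24 h and 48 h, and with array weights the latter was also 2. At 24 h Acsl4 was called in 5 alternatives, with adjusted p between 0.0072 and 0.0364.

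Leaving out arrays, singly or 1 replicate of every group, gave 0 members at 30 min, 1 h and 2 h. The counts were 2 to 5 at 6 h and 3 to 4 at 12 h. At 24 h, 36 h and 48 h they were 3 to 5. They were 0 to 3 between 2 h and 6 h and 2 to 3 between 6 h and 24 h. Between 24 h and 48 h they were 0 to 1, and between 2 h and 48 h 2 to 4. The F-test over the course was refitted only without 1 replicate of every group, and called 5 to 6 members. Without replicate 2 of every group Fabp4 was not called at 24 h (0.25, adjusted p = 0.0848), nor was Slc27a4 at 12 h without replicate 3 (0.32, adjusted p = 0.0592). Cd36 was not called between 2 h and 48 h without any 1 of the 3 replicate numbers (0.26 to 0.30, adjusted p between 0.0634 and 0.0683). Leaving out a replicate moved Slc27a1 minus Slc27a4 between -0.45 and -0.34, Fabp4 minus Fabp5 between -0.25 and -0.20 and Fabp4 minus Fabp3 between 0.23 and 0.27; the last was 0.12 with the mean of the probe sets, which brings in the other Fabp3 set. The causes of the other shifts were not tested. Dim genes such as Fabp3 have little signal over background, so small changes there may go unseen.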

Other observations

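After the values had been seen, 24 h was also set against 12 h and 36 h against 24 h. The set shared by Acsl3 and Utp14b was higher at 24 h than at 12 h by 0.37 ± 0.097 (limma adjusted p = 0.0439 over all probe sets), and its step from 24 h to 36 h was -0.30 ± 0.097 (adjusted p = 0.281). Besides Acsl4, the members had adjusted p-values of 0.0864 or more in both comparisons, the lowest for Acsl5, with -0.28 ± 0.088 from 12 h to 24 h.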
